A study of Mus musculus with 6 samples.

Results

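HoxB genes are the homeobox genes of the HoxB cluster on mouse chromosome 11. The members are its 10 protein-coding genes, Hoxb1 to Hoxb9 and Hoxb13, taken by name. Of these, 9 were found among the 17312 genes of the expression table by their Ensembl identifiers, and Hoxb13 was not analysed here. Genes were tested if 3 or more of the 6 tumors reached 1 FPKM, a filter that kept 8 of the 9, and Hoxb1 is given by its values alone. FPKM counts the fragments of a transcript relative to its length and to all fragments sequenced. Each of the 8 tested genes had at least 1 FPKM in 5 tumors, so none passed the filter through the tumors of a single genotype.

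Hox genes encode transcription factors that tell cells of the embryo their position along the body axis. Their order along the chromosome matches the order in which they are used, from the anterior genes with low numbers to the posterior genes with high numbers, and mesenchymal cells of the adult limb and trunk keep part of that pattern. Polycomb complexes keep unused Hox genes silent, Trithorax complexes keep used ones active, and BAF chromatin remodelling, the complex that the synovial sarcoma fusion protein enters, acts against Polycomb.

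The samples were 6 tumors from the legs of mice, 3 with a Cre-lox inducible allele of SS18-SSX2 and 3 with a Cre-lox inducible allele of SS18-SSX1. SS18-SSX is the fusion oncoprotein of human synovial sarcoma, a soft tissue cancer. All 6 tumors were started with TATCre, a Cre recombinase protein made to enter cells, given by injection into the soft tissue before the tibia, and were taken about 1 year later without further treatment. The comparison between the genotypes asks whether the form of the fusion goes with the level of a gene. TATCre acts on whichever cells take it up, so the labels name no cell of origin, and they give neither the sex of the mice nor whether each tumor came from its own mouse. The p-values therefore measure only the spread between these 6 samples.

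The steps between low FPKM values put 14529821, 7285759 and 14357608 reads behind SS18-SSX2 tumors 1, 2 and 3, and 13316308, 13767776 and 17546111 reads behind SS18-SSX1 tumors 1, 2 and 3. A single read in a transcript of 1 kb was worth 0.137 FPKM in the shallowest library, SS18-SSX2 tumor 2, and between 0.0570 and 0.0751 FPKM in the other 5 tumors. Ss18, the mouse gene of the fusion partner, stood at 19.3 to 34.9 FPKM in SS18-SSX2 tumors and at 15.7 to 33.3 FPKM in SS18-SSX1 tumors, and it does not check the genotypes, because the assignment of fusion reads is not given. Tle1 and Bcl2, markers of synovial sarcoma, were detected in all 6 tumors, at 29.8 to 37.0 and 3.32 to 10.7 FPKM with SS18-SSX2 and at 23.3 to 25.7 and 4.09 to 6.76 FPKM with SS18-SSX1. Of the factors that mark the hindlimb, Pitx1 was at 1.66, 75.2 and 3.49 FPKM in SS18-SSX2 tumors and at 9.09, 4.57 and 40.9 FPKM in SS18-SSX1 tumors. The forelimb factor Tbx5 reached 11.6 FPKM in SS18-SSX2 tumor 2 and was listed at 0 in SS18-SSX1 tumor 1. Ddx3y, a Y-linked gene chosen after its values were seen, had at most 0.0148 FPKM in SS18-SSX2 tumors and 28.2 to 35.2 FPKM in SS18-SSX1 tumors. The sex pattern of the transcripts and the genotype therefore cannot be told apart in any result below.

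On GRCm38 the cluster spans 173941 bases of chromosome 11 from Hoxb13 to Hoxb1, all 10 genes lie on the plus strand, and a gap of 74009 bases separates Hoxb13 from Hoxb9. The microRNA genes Mir196a-1 and Mir10a also lie on its plus strand and were both in the table. Their main mature products are shown because the sequence of one is almost fully complementary to the messenger of a measured HoxB gene. Capitals mark the seed, bases 2 to 8 counted from the 5′ end, which differs between them. The sequences are RefSeq's, on GRCm38.p6.
miR-196a-5p, chr11:96265187-96265208, plus strand: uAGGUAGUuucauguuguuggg
miR-10a-5p, chr11:96317186-96317208, plus strand: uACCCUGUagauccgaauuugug
The 3′ UTR of Hoxb8 holds a stretch that matches the full complement of miR-196a-5p at 21 of its 22 bases, shown with the bases that face the seed in capitals. In mouse embryos this is the known site at which miR-196 directs cleavage of the Hoxb8 messenger.
Hoxb8 site, chr11:96284888-96284909, plus strand, GRCm38: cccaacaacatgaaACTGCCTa
The difference is A5G, counted from the 5′ end of the microRNA, with the full complement's base given first. In the other 9 HoxB genes the closest stretch of the 3′ UTR differed from the full complement at 8 to 11 bases. The exact seed match of miR-196a-5p, ACTACCT, occurred once each in the annotated 3′ UTRs of Hoxb1, Hoxb6 and Hoxb7, and 6.10% of 21022 genes with a 3′ UTR hold it. The seed match of miR-10a-5p, ACAGGGT, occurred once in that of Hoxb3, against 12.5% of genes. These matches are descriptions of sequence and not evidence of an action in the tumors.

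Promoters are shown for 2 HoxB genes with like fold changes and for Hoxb1, which was at or near 0. Each runs from 250 bases before to 50 bases after the annotated start (RefSeq, GRCm38.p6, plus strand), with CpG dinucleotides in capitals.
Hoxb8, chr11:96281655-96281954: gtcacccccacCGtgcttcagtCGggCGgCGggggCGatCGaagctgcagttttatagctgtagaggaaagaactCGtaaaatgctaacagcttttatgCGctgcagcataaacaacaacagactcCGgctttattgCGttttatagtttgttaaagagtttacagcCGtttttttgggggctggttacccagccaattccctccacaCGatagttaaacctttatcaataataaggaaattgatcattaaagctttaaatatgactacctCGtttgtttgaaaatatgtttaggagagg
Hoxb4, chr11:96318017-96318316: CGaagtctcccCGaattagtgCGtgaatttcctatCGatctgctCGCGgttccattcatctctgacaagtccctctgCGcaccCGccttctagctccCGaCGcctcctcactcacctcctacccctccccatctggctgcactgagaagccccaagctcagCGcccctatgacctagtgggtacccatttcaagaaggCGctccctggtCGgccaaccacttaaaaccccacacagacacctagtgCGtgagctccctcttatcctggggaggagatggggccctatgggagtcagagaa
Hoxb1, chr11:96365508-96365807: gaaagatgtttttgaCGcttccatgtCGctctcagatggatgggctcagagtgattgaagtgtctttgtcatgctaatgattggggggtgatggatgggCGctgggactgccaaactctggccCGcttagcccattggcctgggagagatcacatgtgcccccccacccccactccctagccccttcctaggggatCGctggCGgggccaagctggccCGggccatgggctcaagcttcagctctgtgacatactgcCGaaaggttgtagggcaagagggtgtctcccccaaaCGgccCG
The Hoxb8, Hoxb4 and Hoxb1 windows held 13, 14 and 10 CpG dinucleotides, where the median over 32851 promoters of the same length was 7 and the quartiles were 3 and 20. The GC content was 42.3% for Hoxb8, 58.0% for Hoxb4 and 59.3% for Hoxb1, with a median of 52.7% over all promoters. The motif TGATNNAT, a form of the site that Hox proteins bind together with Pbx proteins, was searched on both strands, where 8.85% of all promoters hold it. It occurred once in the Hoxb8 window on the minus strand and once in the Hoxb1 window on the plus strand, and not in the letters of the Hoxb4 window.

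HoxB genes had lower levels in SS18-SSX2 tumors than in SS18-SSX1 tumors, but none of the 8 tested genes passed the test. The 9 genes together summed to 19.8, 1.65 and 27.8 FPKM in SS18-SSX2 tumors, against 82.2, 89.5 and 53.9 FPKM in SS18-SSX1 tumors. The sums averaged 16.4 ± 13.4 FPKM with SS18-SSX2 and 75.2 ± 18.8 FPKM with SS18-SSX1 (SD, n = 3), and the groups did not overlap. In bulk tissue fewer cells that express a gene and less RNA per cell cannot be told apart.

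All 8 tested genes had a lower fitted mean in SS18-SSX2 tumors, as did 48.9% of the 13873 genes tested. Of the 8, 0 passed an adjusted p of 0.05, where 0.0649% of all genes passed in either direction and 0.0216% passed with lower values in SS18-SSX2 (limma, Benjamini-Hochberg over all tested genes). Before adjustment 7 of the 8 had p under 0.05 with lower values, against 1.71% of all genes. For 7 of the 8, every SS18-SSX2 tumor lay below every SS18-SSX1 tumor, which held for 3.76% of all genes. All 8 had a log2 fold change of -1 or less, against 2.01% of all genes. Fold changes are differences of mean log2(FPKM + 1), with SS18-SSX1 subtracted from SS18-SSX2, and they come out smaller than the true ratio where levels are low. The median of the 8 was -1.56, and that of all tested genes was 0.01. The 8 genes are neighbors that varied together from tumor to tumor, so these counts are not 8 separate observations.

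**Figure D1:**
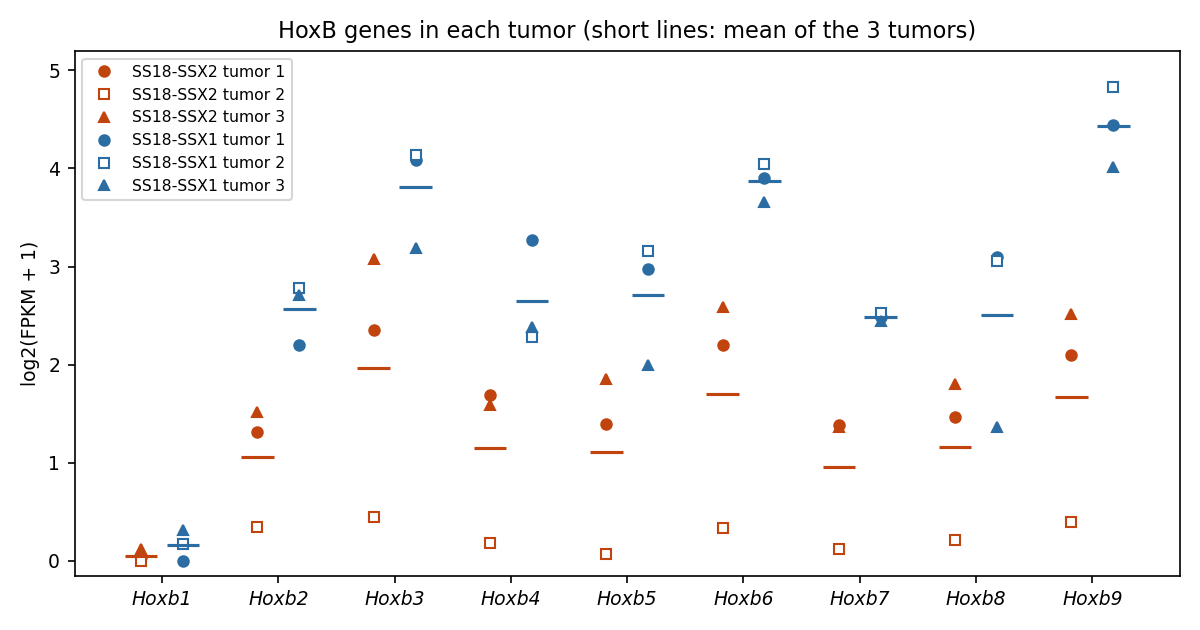
Level of each HoxB gene in the table in each tumor, as log2(FPKM + 1), with genes ordered along the x axis from Hoxb1 to Hoxb9. SS18-SSX2 tumors stand left of SS18-SSX1 tumors at each gene, markers identify the tumor, and the short lines are means over 3 tumors. SS18-SSX2 tumor 2, at 0.365 FPKM or less for each of the 8 tested genes, lies lowest at all of them, and Hoxb8 is the tested gene whose groups overlap.

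The genes of the posterior end are described first. Hoxb9, which helps to pattern the thoracic skeleton, had 3.29, 0.320 and 4.71 FPKM in SS18-SSX2 tumors 1, 2 and 3, against 20.8, 27.5 and 15.1 FPKM in SS18-SSX1 tumors 1, 2 and 3. Even the lowest SS18-SSX1 tumor held 3.22 times the level of the highest SS18-SSX2 tumor. Hoxb9 averaged 2.77 ± 2.24 FPKM with SS18-SSX2 and 21.1 ± 6.18 FPKM with SS18-SSX1 (SD, n = 3). Its log2 fold change was -2.76 (SE 0.55, 95% confidence interval -4.02 to -1.49). It had the smallest p of the tested HoxB genes, at rank 39 among all genes, and did not pass (limma, unadjusted p = 0.00106, adjusted p = 0.378).

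Hoxb8, which is used in the posterior trunk and in myeloid progenitors, was the exception to the separation of the groups. It had 1.77, 0.156 and 2.50 FPKM in SS18-SSX2 tumors and 7.55, 7.30 and 1.57 FPKM in SS18-SSX1 tumors. SS18-SSX1 tumors 1 and 2 were high, while SS18-SSX1 tumor 3 lay below SS18-SSX2 tumors 1 and 3. The log2 fold change was -1.34 with SE 0.60 (limma, unadjusted p = 0.0554, adjusted p = 0.997). The value was -0.87 without SS18-SSX2 tumor 2, and -0.59 without the tumor 2 of both genotypes, whose levels of skeletal muscle genes were high.

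Hoxb7, a gene of trunk patterning, had 1.60, 0.0889 and 1.58 FPKM in SS18-SSX2 tumors, against 4.62, 4.75 and 4.43 FPKM in SS18-SSX1 tumors. The SS18-SSX1 tumors were nearly level, with the highest at 1.07 times the lowest, and all 3 lay above the SS18-SSX2 tumors. Its log2 fold change was -1.53 with SE 0.40 (limma, unadjusted p = 0.00513, adjusted p = 0.593). Hoxb6, a gene of posterior lateral plate mesoderm, the tissue that forms the limb bud, had 3.58, 0.265 and 5.001 FPKM in SS18-SSX2 tumors and 14.01, 15.5 and 11.6 FPKM in SS18-SSX1 tumors. The groups were again apart, by 2.32 times between the lowest SS18-SSX1 and the highest SS18-SSX2 tumor. The log2 fold change of Hoxb6 was -2.16 with SE 0.56 and an interval of -3.45 to -0.87 (limma, unadjusted p = 0.00491, adjusted p = 0.593). With Hoxb9 it was one of the 2 HoxB genes with a value of -2 or less. This distinction depends on the pseudocount of 1. With a pseudocount of 0.1 the tested HoxB genes ran from -3.44 for Hoxb9 to -2.08 for Hoxb8.

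At Hoxb5 and Hoxb4, in the middle of the cluster, the groups lay closer together than at Hoxb7 and Hoxb6. Hoxb5, which acts in the placing of the forelimb along the trunk, had 1.64, 0.0488 and 2.63 FPKM in SS18-SSX2 tumors and 6.86, 7.90 and 3.00 FPKM in SS18-SSX1 tumors. SS18-SSX1 tumor 3 stood at 1.14 times the level of SS18-SSX2 tumor 3, so the groups were barely apart. Hoxb4, known for its part in the expansion of blood stem cells, had 2.24, 0.132 and 2.01 FPKM with SS18-SSX2 and 8.69, 3.85 and 4.22 FPKM with SS18-SSX1. For this gene SS18-SSX1 tumor 1 stood above the rest. The log2 fold changes were -1.60 for Hoxb5 (SE 0.53, limma unadjusted p = 0.0170, adjusted p = 0.809) and -1.49 for Hoxb4 (SE 0.49, limma unadjusted p = 0.0166, adjusted p = 0.809).

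The anterior genes are best known from the hindbrain. Hoxb3 had 4.12, 0.365 and 7.46 FPKM in SS18-SSX2 tumors and 16.04, 16.6 and 8.15 FPKM in SS18-SSX1 tumors. Its groups were just apart, with SS18-SSX1 tumor 3 at 1.09 times the level of SS18-SSX2 tumor 3. Its log2 fold change was -1.85 with SE 0.65 (limma, unadjusted p = 0.0222, adjusted p = 0.840), and -1.09 without SS18-SSX2 tumor 2. Hoxb2, which acts in facial motor neurons, had 1.48, 0.275 and 1.85 FPKM with SS18-SSX2 and 3.61, 5.87 and 5.53 FPKM with SS18-SSX1. All 3 SS18-SSX1 tumors lay above the SS18-SSX2 tumors, and tumor 1 was the lowest of them, unlike at most HoxB genes. The log2 fold change of Hoxb2 was -1.51 with SE 0.39 (limma, unadjusted p = 0.00484, adjusted p = 0.593).

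Hoxb1, which gives the fourth segment of the hindbrain its identity, was at the limit of detection. It had 0.0296, 0 and 0.0900 FPKM in SS18-SSX2 tumors and 0, 0.125 and 0.245 FPKM in SS18-SSX1 tumors. These values stand for 1, 0 and 3 reads with SS18-SSX2 and 0, 4 and 10 reads with SS18-SSX1, where 3 reads, the limit that a count of 0 allows, were worth 0.0736 to 0.177 FPKM. Only SS18-SSX1 tumors 2 and 3 lay above that limit, and the filter kept Hoxb1 out of the test.

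The depth limits the values of SS18-SSX2 tumor 2 most. The reads worked out for the tested genes there numbered 6 for Hoxb9, 3 for Hoxb8, 1 for Hoxb7 and 4 for Hoxb6. They numbered 1 for Hoxb5, 4 for Hoxb4, 4 for Hoxb3 and 7 for Hoxb2. At least 35 reads stood behind each of these genes in SS18-SSX2 tumors 1 and 3, and at least 73 in each SS18-SSX1 tumor. Only for Hoxb9 and Hoxb7 among these did the annotated length give the whole reads. For the others the smallest length that did so was taken, so their true number may be higher. For Hoxb3 that length was 1503 bases, where 4251 are annotated.

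The level of the cluster as a whole differed between tumors of a genotype. The mean log2(FPKM + 1) of the 8 tested genes was 1.74, 0.26 and 2.04 in SS18-SSX2 tumors and 3.31, 3.35 and 2.72 in SS18-SSX1 tumors. SS18-SSX2 tumor 2 was the lowest of the 6 tumors for all 8 genes, and SS18-SSX1 tumor 2 was the highest for 6 of them, the other two being Hoxb8 and Hoxb4, for which SS18-SSX1 tumor 1 was highest. Within SS18-SSX2 the highest tumor exceeded the lowest by 6.74 times for Hoxb2 and by 53.8 times for Hoxb5, with the other 6 genes in between. The lowest was always SS18-SSX2 tumor 2, where Hoxb5 rested on 1 read as worked out, so these ratios are imprecise. Within SS18-SSX1 this ratio ran from 1.07 for Hoxb7 to 4.80 for Hoxb8, and tumors 1 and 2, with nearly equal means, stood in opposite order at Hoxb4 and Hoxb2.

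The balance between genes also differed. Among the protein-coding genes of the cluster, Hoxb3 had the highest FPKM in all 3 SS18-SSX2 tumors, and Hoxb9 in all 3 SS18-SSX1 tumors. Hoxb9 made up 16.6%, 19.4% and 16.9% of the summed HoxB FPKM in SS18-SSX2 tumors, against 25.3%, 30.7% and 28.1% in SS18-SSX1 tumors. The ratio of Hoxb9 to Hoxb3 was 0.798, 0.876 and 0.631 with SS18-SSX2 and 1.30, 1.65 and 1.86 with SS18-SSX1, so the groups did not overlap. An error in the transcript length of either gene would move this ratio by the same factor in every tumor. It could, however, change which gene ranks highest, and for Hoxb3 the length worked out was 1503 bases, where 4251 are annotated. Hoxb3 also shares 52.9% of its exonic bases with the antisense transcript Hoxb3os, and reads there cannot be told apart. The values for SS18-SSX2 tumor 2 rest on few reads, and the difference was noticed in the data and not tested.

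**Figure D2:**
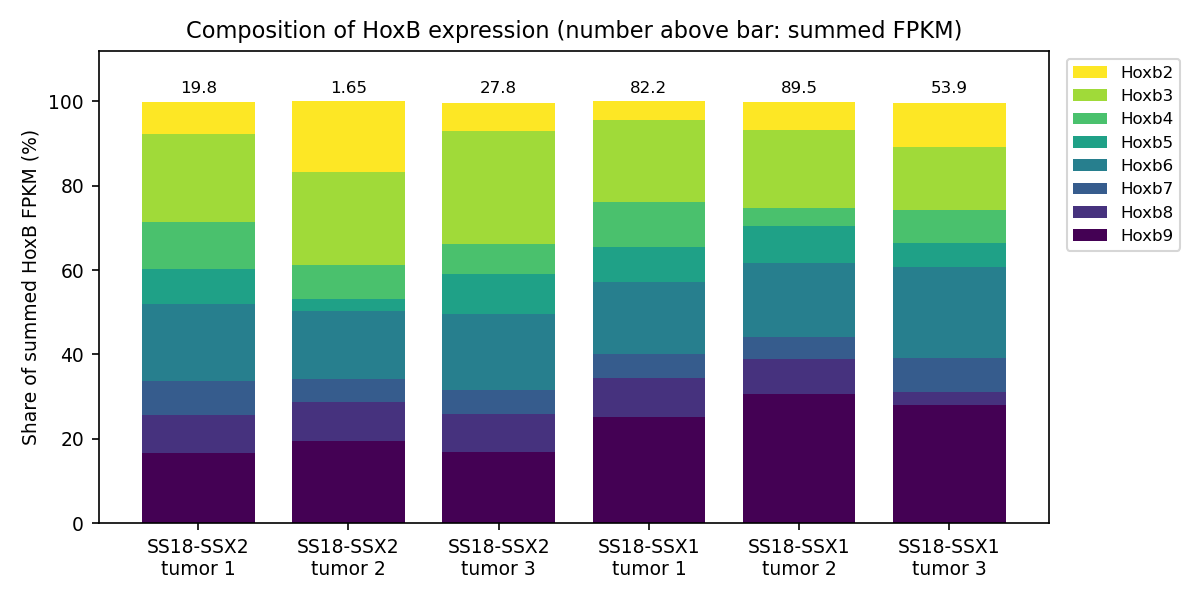
Share of the summed HoxB FPKM that each gene took, in percent, with 1 bar per tumor, the 3 SS18-SSX2 tumors on the left and the summed FPKM above each bar. Hoxb9, the lowest segment, takes 16.6% to 19.4% in SS18-SSX2 tumors and 25.3% to 30.7% in SS18-SSX1 tumors. Hoxb1, at most 0.455% of a sum, is left out, so that bars end just under 100.

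The table also held 6 transcripts without a protein product inside the cluster. The 4 that were tested had lower fitted means in SS18-SSX2 tumors, and none passed the test. Hoxb5os, a noncoding RNA antisense to Hoxb5 and Hoxb6, had 3.66, 0.197 and 9.11 FPKM in SS18-SSX2 tumors and 34.0, 64.7 and 11.1 FPKM in SS18-SSX1 tumors. Its groups did not overlap, although SS18-SSX1 tumor 3 lay only just above SS18-SSX2 tumor 3. The log2 fold change was -2.98 with SE 0.85 (limma, unadjusted p = 0.00837, adjusted p = 0.660). Per length Hoxb5os stood at 2.23, 4.04 and 3.47 times the level of Hoxb5 in SS18-SSX2 tumors and at 4.95, 8.19 and 3.71 times in SS18-SSX1 tumors. Its exons share 100 bases with those of Hoxb5 and none with those of Hoxb6, which is 14.4% of the exonic length of Hoxb5os and 3.59% of that of Hoxb5. Strand handling is not given, so reads in the shared stretch cannot be told apart.

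Gm53, an intergenic RNA between Hoxb13 and Hoxb9, had 1.83, 0.0345 and 2.69 FPKM in SS18-SSX2 tumors and 10.1, 12.6 and 1.75 FPKM in SS18-SSX1 tumors. As at Hoxb8, SS18-SSX1 tumor 3 lay below SS18-SSX2 tumors 1 and 3. Its log2 fold change was -1.75 with SE 0.70 (limma, unadjusted p = 0.0383, adjusted p = 0.952), and -0.77 without the tumor 2 of both genotypes. Hoxb3os, antisense to Hoxb3 and Hoxb2, was not tested and had 0.246, 0.0327 and 0.381 FPKM with SS18-SSX2 and 2.11, 1.57 and 0.773 FPKM with SS18-SSX1, with no overlap. It shares 2250 exonic bases with Hoxb3 and 953 with Hoxb2, so that its reads and theirs cannot be told apart either.

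The microRNA genes gave few reads. The bases of the Mir196a-1 hairpin held 5, 0 and 0 reads in SS18-SSX2 tumors and 14, 26 and 0 reads in SS18-SSX1 tumors, or 3.37, 0 and 0 FPKM against 10.3, 18.5 and 0 FPKM. The log2 fold change was -1.89 with SE 1.10 (limma, unadjusted p = 0.127, adjusted p = 0.997). Leaving out tumor 2 of SS18-SSX1 gave -1.04, leaving out its tumor 3 gave -3.18, and leaving out the tumor 2 of both genotypes gave -0.69. Mir10a held 1, 0 and 5 reads with SS18-SSX2 and 10, 0 and 0 reads with SS18-SSX1, and was not tested. These are reads from libraries of total RNA and may come from longer precursors, so they do not measure the mature sequences printed above. In SS18-SSX1 tumor 3, where Hoxb8 was the lowest of the SS18-SSX1 tumors, Mir196a-1 was at 0 reads. A count of 0 for so short a gene allows up to 1.68 FPKM there and 4.04 FPKM in SS18-SSX2 tumor 2. A link between Mir196a-1 and Hoxb8 was not tested. The processed pseudogene Gm11539 had a log2 fold change of -0.30 (limma adjusted p = 0.997).

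Protein-coding genes just outside the cluster had fold changes nearer to 0. Within 200 kb beyond its ends 4 were in the table and 3 were tested, all on the Hoxb13 side. Snf8, a subunit of an endosomal sorting complex, had 7.15, 15.1 and 12.5 FPKM in SS18-SSX2 tumors and 7.04, 15.3 and 12.9 FPKM in SS18-SSX1 tumors. The log2 fold changes were -0.01 for Snf8, -0.17 for Ube2z, a ubiquitin-conjugating enzyme, and -0.34 for Atp5g1, a subunit of the mitochondrial ATP synthase. Their adjusted p-values were 0.997 to 0.999 (limma), although the groups of Atp5g1 did not overlap. Skap1, beyond Hoxb1, had at most 0.555 FPKM in any tumor.

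**Figure D3:**
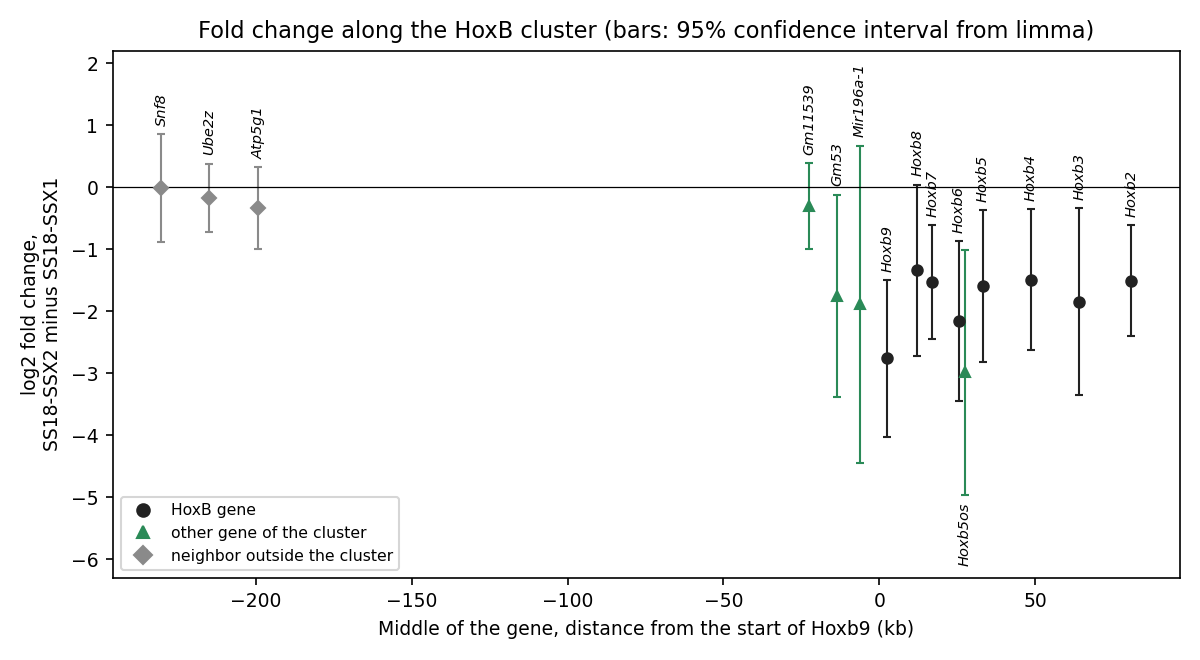
Log2 fold change, SS18-SSX2 minus SS18-SSX1, of each tested gene of the cluster and of its tested neighbors, against the distance of the gene's middle from the start of Hoxb9 in kb. Bars are 95% confidence intervals of single genes from limma, without adjustment. All HoxB genes lie at -1.34 or below and the 3 outside neighbors lie between -0.34 and -0.01, while no gene shown passed the adjusted threshold.

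The other Hox clusters also had lower values in SS18-SSX2 tumors and no gene that passed. All 9 tested HoxC genes were lower, with a median log2 fold change of -1.53. For 6 of the 9 every SS18-SSX2 tumor lay below every SS18-SSX1 tumor, against 3.76% of all tested genes. All 6 tested HoxD genes were lower with a median of -1.36, and all 8 tested HoxA genes with a median of -0.88, and in these 2 clusters every tested gene overlapped between groups. An unadjusted p under 0.05 with lower values was reached by 7 of the 8 tested HoxB genes (limma). It was reached by 7 of 9 HoxC, 2 of 6 HoxD and 0 of 8 HoxA genes, and by 1.71% of all tested genes. Whether the clusters differ from each other was not tested.

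Paralogs, the genes with the same number in other clusters, give the closest counterparts. Hoxb9 at -2.76 stood beside -1.97 for Hoxc9, -1.54 for Hoxd9 and -0.65 for Hoxa9. The pseudocount draws the values of low genes toward 0, so the order of paralogs depends partly on their level. As ratios of SS18-SSX1 to SS18-SSX2 means, Hoxb9 stood at 7.62, Hoxc9 at 4.19, Hoxd9 at 5.63 and Hoxa9 at 3.43. Hoxc9 had 4.76, 1.19 and 5.76 FPKM in SS18-SSX2 tumors and 14.9, 18.5 and 15.6 FPKM in SS18-SSX1 tumors, so the groups lay apart as they did for Hoxb9. Hoxa9 had 1.09, 0.369 and 0.437 FPKM with SS18-SSX2 and 4.97, 1.42 and 0.102 FPKM with SS18-SSX1, where SS18-SSX1 tumor 3 was the lowest tumor of all. Hoxb6 at -2.16 stood beside -1.53 for Hoxc6 and -1.21 for Hoxa6, and Hoxb8 at -1.34 beside -1.24 for Hoxc8 and -1.31 for Hoxd8. Hoxb5 at -1.60 stood beside -1.17 for Hoxc5 and -1.10 for Hoxa5, and Hoxb4 at -1.49 beside -0.90 for Hoxc4. Hoxb3 at -1.85 stood beside -1.42 for Hoxd3 and -0.72 for Hoxa3, and Hoxb2 at -1.51 beside -0.52 for Hoxa2. The ratio of means was 8.84 for Hoxd3, where SS18-SSX1 tumor 1 had 20.6 FPKM, against 3.42 for Hoxb3. Adjusted p-values of the named paralogs were 0.465 for Hoxc9 and 0.608 or more for the rest (limma).

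**Figure D4:**
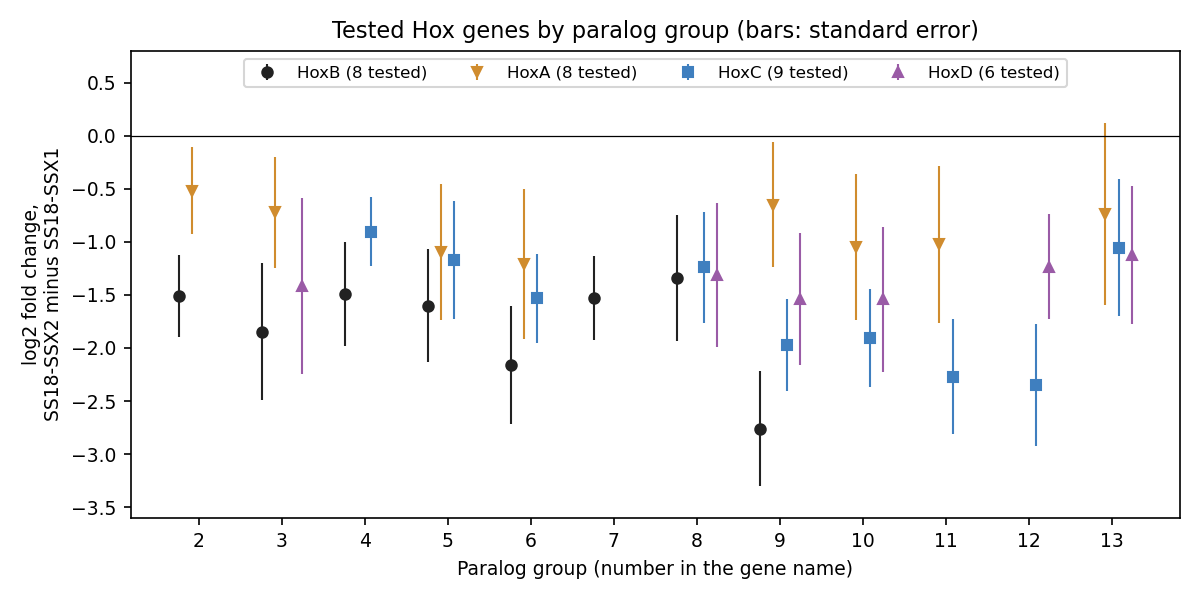
Log2 fold change, SS18-SSX2 minus SS18-SSX1, of all 31 tested Hox genes by paralog group, with 1 symbol per cluster and bars of 1 standard error from limma. All values lie below 0, from -2.76 for Hoxb9 to -0.52 for Hoxa2, and none passed the adjusted threshold.

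The summed level of each cluster shows where the tumors part. HoxB summed to 53.9 FPKM in SS18-SSX1 tumor 3, above every SS18-SSX2 tumor, and HoxC to 70.5, 21.5 and 88.9 FPKM with SS18-SSX2 and 258, 249 and 147 FPKM with SS18-SSX1, likewise without overlap. HoxA summed to 26.04, 4.87 and 20.4 FPKM with SS18-SSX2 and 96.6, 37.5 and 8.64 FPKM with SS18-SSX1. HoxD summed to 13.8, 2.58 and 14.1 FPKM with SS18-SSX2 and 98.9, 41.4 and 11.6 FPKM with SS18-SSX1. In SS18-SSX1 tumor 3, HoxA and HoxD were thus within the range of the SS18-SSX2 tumors, while HoxB and HoxC were above it.

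Factors that work with Hox proteins or control Hox genes had fold changes nearer to 0 for the most part. Of 9 tested TALE cofactors, the Pbx, Meis and Pknox proteins that bind DNA beside Hox proteins, 6 had lower and 3 higher means in SS18-SSX2 tumors, with a median log2 fold change of -0.23 and 0 called. Of 6 tested Cdx and retinoic acid genes, which act upstream of Hox genes in the embryo, 3 were lower and 3 higher, and 0 were called. Rarb, a retinoic acid receptor, had 15.4, 17.6 and 13.3 FPKM with SS18-SSX2 and 19.2, 18.7 and 24.7 FPKM with SS18-SSX1, without overlap (log2 fold change -0.41, limma adjusted p = 0.997).

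Of 13 tested Polycomb genes, 10 had lower and 3 higher means in SS18-SSX2 tumors, with a median of -0.25 and 0 called. Bmi1, a subunit of the Polycomb complex PRC1, had 3.60, 3.11 and 1.75 FPKM in SS18-SSX2 tumors and 7.79, 9.21 and 11.8 FPKM in SS18-SSX1 tumors, without overlap. Its log2 fold change was -1.49 with SE 0.31 (limma, unadjusted p = 0.00153, adjusted p = 0.413). Cbx8, a PRC1 subunit that binds methylated histone H3, had 4.12, 4.74 and 5.06 FPKM with SS18-SSX2 and 7.03, 10.9 and 11.6 FPKM with SS18-SSX1, also without overlap (log2 fold change -0.92, limma adjusted p = 0.737). Of 7 Trithorax group genes, 2 were lower and 5 higher, and both tested demethylases of histone H3 lysine 27, Kdm6a and Kdm6b, had higher means, none of them called. Kdm6a lies on the X chromosome, and its difference cannot be told apart from the sex pattern.

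Markers of other cell types differed between tumors of a genotype and stood beside the HoxB values as follows. All 10 markers of skeletal muscle fibres were detected in every tumor, and they summed to 96.8, 4386 and 122 FPKM in SS18-SSX2 tumors and 261, 9758 and 404 FPKM in SS18-SSX1 tumors. Of these 10, 9 had lower means in SS18-SSX2 tumors, as did 48.9% of all tested genes. Their median log2 fold change was -1.31, and 0 were called. Of the 2 muscle-rich tumors, SS18-SSX2 tumor 2 had the lowest summed HoxB level and SS18-SSX1 tumor 2 the highest. The log2 fold change of Hoxb9 was -2.92 when the muscle level was a covariate, and -1.92 without both muscle-rich tumors (limma adjusted p = 0.337 and 0.203). The values without both tumors were -1.09 for Hoxb7, -1.39 for Hoxb6, -0.86 for Hoxb5, -1.19 for Hoxb4, -0.92 for Hoxb3, -1.05 for Hoxb2 and -1.59 for Hoxb5os.

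Immune and vessel markers also varied widely. The 6 mast cell markers summed to 29.8, 60.1 and 13.3 FPKM with SS18-SSX2 and 94.2, 61.3 and 2344 FPKM with SS18-SSX1, and the tumor at 2344 FPKM, SS18-SSX1 tumor 3, had the lowest HoxB sum of its genotype. All 6 had lower means in SS18-SSX2 tumors, with a median log2 fold change of -2.87 and 0 called. Of the macrophage markers 1 was lower and 6 higher, and of the endothelial markers 1 was lower and 4 higher, with 0 called. The 7 macrophage markers summed to 129, 551 and 143 FPKM with SS18-SSX2 and 41.5, 308 and 340 FPKM with SS18-SSX1. The 5 B and plasma cell markers summed to 4.81, 731 and 4.52 FPKM with SS18-SSX2 and 2.12, 78.1 and 1.88 FPKM with SS18-SSX1, high in the muscle-rich tumor of each genotype. The 5 endothelial markers summed to 85.9, 18.1 and 77.4 FPKM with SS18-SSX2 and 71.0, 10.3 and 41.5 FPKM with SS18-SSX1, low in the muscle-rich tumor of each genotype.

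Of the 6 pericyte and smooth muscle markers, 5 had higher means in SS18-SSX2 tumors, and only Des had a lower one (log2 fold change -0.35). The sums of the 6 were 124, 203 and 75.5 FPKM with SS18-SSX2 and 75.4, 224 and 47.6 FPKM with SS18-SSX1, and they overlapped. Des alone supplied 140 of the 203 FPKM of SS18-SSX2 tumor 2, and 202 of the 224 FPKM of SS18-SSX1 tumor 2. It stood at 9.16 FPKM or less in every other tumor. The high sums of the 2 muscle-rich tumors thus rest mostly on Des and do not show a high level of the other markers. Acta2, the smooth muscle actin, was called and moved with the genotype, at 28.4, 19.96 and 22.4 FPKM in SS18-SSX2 tumors and 3.58, 5.10 and 3.58 FPKM in SS18-SSX1 tumors. Its log2 fold change was 2.27 (limma adjusted p = 0.0474), and the call was lost whichever tumor was left out, with adjusted p from 0.0900 to 0.392. Tagln, an actin-binding protein of smooth muscle, had 9.68, 20.1 and 9.05 FPKM with SS18-SSX2 and 1.94, 4.08 and 5.68 FPKM with SS18-SSX1, without overlap (log2 fold change 1.501, limma adjusted p = 0.639). The part of any of these cells in the HoxB levels was not tested.

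Of the 4 markers of synovial sarcoma, Sox2 and Sim2 had lower means in SS18-SSX2 tumors and Tle1 and Bcl2 had higher means, none of them called. Sox2 had 20.1, 9.55 and 21.3 FPKM in SS18-SSX2 tumors and 40.7, 38.5 and 31.1 FPKM in SS18-SSX1 tumors, without overlap (log2 fold change -1.14, limma adjusted p = 0.681). Sim2 had 4.24, 0.449 and 2.28 FPKM with SS18-SSX2 and 14.4, 14.2 and 3.71 FPKM with SS18-SSX1, with SS18-SSX1 tumor 3 inside the range of SS18-SSX2 (log2 fold change -1.83, limma adjusted p = 0.810).

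Likeness of pattern was measured as the root mean square difference between log2(FPKM + 1) profiles, each centred on its own mean over the 6 tumors. Among tested HoxB genes the profiles of Hoxb7 and Hoxb2 were nearest to each other, at 0.203, and those of the neighbors Hoxb9 and Hoxb8 were farthest apart, at 0.821. Outside the Hox clusters, the 5 genes nearest to the mean HoxB profile were Khdrbs3 at 0.292, Snai2 at 0.373, Sox2 at 0.392, Fgf10 at 0.412 and the pseudogene Eif3s6-ps2 at 0.423. Khdrbs3, an RNA-binding protein of splicing, had 24.9, 5.46 and 20.4 FPKM in SS18-SSX2 tumors and 60.8, 42.2 and 45.5 FPKM in SS18-SSX1 tumors. Snai2, a transcription factor of epithelial-mesenchymal transition, had 5.02, 2.09 and 5.32 FPKM with SS18-SSX2 and 9.84, 14.8 and 11.4 FPKM with SS18-SSX1. Both were chosen for their likeness to the mean HoxB profile. Their low values in SS18-SSX2 tumor 2 and their lack of overlap between the genotypes are therefore largely fixed by that choice.

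Hox genes were frequent among the nearest neighbors in pattern. Of the 100 tested genes nearest to Hoxb3, 25 were Hox genes or Hox antisense transcripts, and 8 of these lay in the HoxB cluster. The number was 21 for Hoxb9 and for Hoxb8, 22 for Hoxb5, 20 for Hoxb6, 16 for Hoxb4, 13 for Hoxb7 and 9 for Hoxb2, where such genes make up 0.238% of the tested genes, 33 in all. The nearest single gene was Hoxc12 for Hoxb9, Hoxc9 for Hoxb6 and Hoxc5 for Hoxb5, which are genes of another chromosome, Hoxb6 for Hoxb3, and genes outside the Hox clusters for Hoxb8, Hoxb7, Hoxb4 and Hoxb2. The 6 points of a profile share their libraries, so these counts describe the tumors and carry no test.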

How the data were processed

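RNA was extracted from snap-frozen tumors with Qiagen RNeasy kits and made into Ribo-Zero libraries, which deplete ribosomal RNA, per the labels' protocols. The authors deposited FPKM values in 1 table with a column for each of 6 tumors. The submitters' processing notes name Novoalign 2.08.03 and mm10, with no role given. The sources used here do not give the counter, gene models, strand handling or gene filter. Reads that match several paralogs may have been split. No columns were pooled.

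Identifiers were matched to GENCODE release 21 on GRCm38, the build mm10 also names, which gave symbols for 17029 of 17312 genes. Values were tested as log2(FPKM + 1), a pseudocount of 1, with limma 3.58.1 in R 4.3.3 (eBayes with a mean-variance trend, two-sided) on 13873 genes with at least 1 FPKM in at least 3 tumors, with Benjamini-Hochberg adjustment and a threshold of 0.05. Tables were handled with pandas 2.3.3 and numpy 2.4.6 under Python 3.11.15, and plots drawn with matplotlib 3.10.9. Library totals came from steps of low values in single-exon genes, of which 68.2% to 72.0% were whole within 0.02 reads. Because recovered lengths are often uncertain, reads describe depth only and no count test was run. Limits from 3 reads cover counting error only. The fit and the depth step were tested on simulated data.

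Named genes were all HoxB genes, the other cluster genes, coding neighbors within 200 kb, paralogs, the listed genes with the smallest p or highest mean, and the 5 nearest profiles. Members and lists were chosen with earlier results of these data known. Promoters were matched for 3 of 10 HoxB genes.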

Additional observations from a re-analysis of the deposited data

How the results depend on the processing

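The fit was repeated with 19 other settings: pseudocounts of 0.1 and 0.5, no filter, a minimum mean of 5 FPKM, quantile, upper quartile and TPM scaling, eBayes without a trend or robust, weights per tumor, the replicate block, the muscle level as a covariate, each of the 6 tumors left out, and the muscle-rich tumor of each genotype left out. All 147 HoxB values were below 0 and 0 passed, and the lowest adjusted p was 0.178, for Hoxb9 with weights. The 147 are refits of the same 6 tumors, and several settings leave the fold change as it was, so they are not separate observations. The share of all genes that kept their sign is not given. Over these settings the log2 fold change of Hoxb9 ran from -3.44 to -1.92 and its adjusted p up to 0.930. A pseudocount of 0.1 moved Hoxb4, Hoxb5, Hoxb7 and Hoxb8 by over 1.5 times, to values of -2.65 to -2.08. The number of HoxB genes with an unadjusted p under 0.05 was 7 as reported, 5 with either tumor 1 or tumor 2 of SS18-SSX1 left out or without both muscle-rich tumors, 6 with weights, and 8 with quantile normalization or without tumor 3 of either genotype. It was 3 with a minimum mean of 5 FPKM, which Hoxb3, Hoxb6 and Hoxb9 alone passed. Of all tested genes 1.71% had such a p with lower values in the reported fit, and the share at the other settings is not given. Whether these moves are particular to HoxB genes was not tested.

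Over all genes 9 were called. The number was 5 with a pseudocount of 0.1, 16 with weights per tumor and 20 without the muscle-rich tumors, and 3 to 11 with each tumor left out, 3 of these without SS18-SSX2 tumor 3. The main fit did not pair tumors of the same number, and the labels do not say whether they belong together. Deposited column names begin with A for tumor 2 and with B for tumor 3 of both genotypes, with no meaning given. Deviations from group means correlated at 0.38, 0.31 and -0.28 across genes for tumors of the same number. For tumors of unlike number they correlated at -0.44 to 0.23. These values cannot settle whether such tumors share a batch. The replicate block called 4 genes and 0 HoxB genes. The cause of these changes was not tested. In SS18-SSX2 tumor 2 the HoxB genes rested on few reads, so their levels there are imprecise.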
